A study of Mus musculus with 40 samples.

Results

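The miR-183, miR-96 and miR-182 cluster consists of 3 miRNAs encoded next to each other on mouse chromosome 6. Its members, mmu-miR-183-5p, mmu-miR-96-5p and mmu-miR-182-5p, were taken by name from the 1978 mature miRNAs counted in small RNA libraries of the hippocampal CA1 region. The study asked how hippocampal miRNAs differ with age in a mouse model of heart failure. One library was made from each of 40 mice. At 3 months of age there were 5 wild-type control mice and 9 CaMKIIδC transgenic (TG) mice, and at 6 months 15 controls and 11 TG mice. TG mice overexpress the δC form of calcium/calmodulin-dependent protein kinase II, and the controls were wild-type littermates. All mice had a C57Bl/6J background, and males and females were used. The promoter that drives the transgene was not given in the sources used here. Wild-type control mice 1 and 2 at 3 months carry TG in their genotype field, so that results for this group are also given without them.

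Clusters of this kind are transcribed as 1 long RNA, from which hairpins are cut and then trimmed to mature miRNAs. The seed near the 5′ end of a mature miRNA pairs with target mRNAs, which are then repressed. The cluster is best known from sensory organs such as the retina and the hair cells of the inner ear, where changes in the miR-96 seed cause progressive hearing loss. In the hippocampus it has been linked to long-term memory through protein phosphatase 1, a phosphatase that limits memory storage.

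The mature sequences are shown because the members can be told apart, and grouped by target, only by their bases. They are RefSeq sequences on GRCm38.p6, written 5′ to 3′ with the seed, bases 2 to 8, in capitals.
miR-183-5p: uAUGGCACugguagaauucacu
miR-96-5p: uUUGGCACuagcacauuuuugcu
miR-182-5p: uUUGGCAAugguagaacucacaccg
With positions counted from 1 at the 5′ end, miR-183-5p and miR-96-5p differed in the seed by A2U, and miR-96-5p and miR-182-5p by C8A. miR-96-5p and miR-182-5p therefore share bases 2 to 7, whereas miR-183-5p differs from both at base 2. Over the whole sequence, seed included, miR-183-5p and miR-182-5p had 18 identical bases of 22 compared from the 5′ end, and miR-96-5p and miR-182-5p had 12 of 23. Of the 1679 counted mature miRNAs with a RefSeq sequence, miR-1271-5p was the only other one with bases 2 to 7 of a member. Its sequence, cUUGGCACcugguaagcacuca, has the full seed of miR-96-5p, and it had 4 counts over all 40 libraries.

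All 3 genes lie on the minus strand of chromosome 6 (GRCm38) within 3820 bases. Mir183 (ENSMUSG00000065619.2) is at chr6:30169668-30169737, and Mir96 (ENSMUSG00000065586.1) follows at chr6:30169446-30169551 after 116 bases. Mir182 (ENSMUSG00000076361.1) is at chr6:30165918-30165992, a further 3453 bases downstream. RefSeq places all 3 inside the lncRNA gene Mirc35hg (chr6:30158640-30174125), and the protein-coding genes on either side are Nrf1 and Ube2h. The hairpins are shown with both arms in capitals, the 5′ arm first.
Mir183 hairpin: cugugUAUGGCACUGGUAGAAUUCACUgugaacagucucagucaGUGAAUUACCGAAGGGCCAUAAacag
Mir96 hairpin: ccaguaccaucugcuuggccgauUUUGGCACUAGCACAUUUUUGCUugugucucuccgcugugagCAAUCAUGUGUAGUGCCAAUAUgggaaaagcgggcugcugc
Mir182 hairpin: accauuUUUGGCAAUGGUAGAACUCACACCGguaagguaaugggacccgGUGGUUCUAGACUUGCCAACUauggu
Nearly all counts came from the 5′ arm. Over all libraries, miR-183-3p had 17 counts against 30705 for miR-183-5p, which is 0.0553% of both arms (95% exact Clopper-Pearson interval 0.0322 to 0.0886%). miR-182-3p had 12 counts against 49001 for its 5′ arm (0.0245%, interval 0.0127 to 0.0428%). miR-96-3p had 2 counts against 2134 (0.0936%, interval 0.0113 to 0.338%). These intervals cover counting error only. The 3′ arms were too rare to be compared between groups.

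The promoter of the host gene Mirc35hg is shown as well (chr6:30174076-30174375, minus strand, 250 bases before to 50 bases after the start in RefSeq). Its part in the levels of the members was not tested. Capitals mark the motifs found.
Mirc35hg promoter: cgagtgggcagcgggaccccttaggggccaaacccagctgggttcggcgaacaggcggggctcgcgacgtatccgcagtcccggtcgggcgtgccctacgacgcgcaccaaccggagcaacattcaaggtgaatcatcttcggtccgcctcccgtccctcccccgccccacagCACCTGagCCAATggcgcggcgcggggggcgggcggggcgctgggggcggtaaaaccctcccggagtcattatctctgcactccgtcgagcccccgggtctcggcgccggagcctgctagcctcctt
Both strands were searched. The CCAAT box, CCAAT, occurred 1 time here and occurs in 37.4% of all 32851 promoters of this length. The E-box variant CACCTG also occurred 1 time, without overlap with it, and is found in 20.2% of promoters. The TATA box (TATAAA) was not in this window and is in 13.6% of promoters. The site of the retinal factor Crx (TAATCC) was not in it either, with 7.06% of promoters, nor was the cAMP response element, TGACGTCA, with 1.79%. The GC content was 70.3%, against a median of 52.7% over all promoters.

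Total counts per library ranged from 2656368 to 36547011, and 3 libraries had under 5000000: TG mouse 9 and wild-type control mice 4 and 5, all at 6 months. The neuronal markers miR-124-3p, miR-9-5p, miR-128-3p, miR-138-5p and miR-137-3p had summed levels between 165754 and 363236 counts per 1000000 miRNA counts (CPM). Most of this came from miR-128-3p and miR-9-5p, with means of 164737 and 75707 CPM. The means of miR-124-3p, miR-138-5p and miR-137-3p were 3122, 407 and 189 CPM. The 4 heart and skeletal muscle markers had summed levels of 240 to 1681 CPM, mostly from miR-1a-3p, with miR-133a-3p and miR-499-5p at means of 10.8 and 9.84 CPM and miR-208a-3p at 1 count in all libraries together. The transgene itself could not be checked, since small RNA libraries do not measure its mRNA. A drop in the number of cells that make a miRNA and a drop in the level per cell cannot be told apart in this tissue.

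The members were expressed at low to moderate levels in CA1. Levels are CPM scaled between libraries by the TMM method of edgeR. A read covers a whole mature miRNA, so no correction for length was needed, but miRNAs can differ in how well they are captured, which was not tested. miR-182-5p had the most counts of the 3, with 352 to 3054 per library, and ranked 198 of the 1978 mature miRNAs by total count. miR-183-5p had 168 to 2033 counts per library and ranked 239. miR-96-5p had 1 to 187 counts and ranked 436. Its count was 8, 7 and 1 in the 3 libraries under 5000000 counts and at least 10 in the other 37. Of the counts of all 3 members, miR-182-5p took 49.9 to 73.6%, miR-183-5p 25.7 to 45.0% and miR-96-5p 0.181 to 7.70% in each library. The order miR-182-5p, miR-183-5p, miR-96-5p thus held in all 40 mice.

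miR-182-5p, which shares most of its seed with miR-96-5p and is known to target the transcription factor Foxo1, varied most. In wild-type control mice 1 to 5 at 3 months its level was 112, 52.7, 91.4, 66.2 and 48.2 CPM. In TG mice at 3 months it ranged from 40.9 to 273 CPM, and the median was 107. At 6 months it ranged from 34.6 to 601 CPM in the controls, around a median of 62.1, and from 44.7 to 593 CPM in TG mice with a median of 104. All 4 groups overlapped. The highest levels, 601 and 593 CPM, came from wild-type control mouse 4 and TG mouse 9 at 6 months, both among the libraries under 5000000 counts.

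miR-183-5p, the member whose bases 2 to 7 the others do not share, varied alongside it. Its level was 63.2, 39.0, 63.1, 54.7 and 29.8 CPM in wild-type control mice 1 to 5 at 3 months. TG mice at 3 months had 34.8 to 202 CPM with a median of 83.4. At 6 months the range was 22.3 to 252 CPM in wild-type control mice (median 43.1) and 29.7 to 215 CPM in TG mice (median 64.0). These groups overlapped as well, and the wild-type control mice at 3 months had the narrowest range.

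miR-96-5p, the member with the known role in hearing, was the rarest and was spread less widely. Wild-type control mice 1 to 5 at 3 months had 4.92, 4.91, 2.82, 2.70 and 2.34 CPM, and the highest values were those of the mice with mixed genotype labels. TG mice at 3 months had 2.71 to 7.64 CPM with a median of 4.51. At 6 months, wild-type control mice had 0.775 to 7.40 CPM (median 3.66) and TG mice 2.03 to 9.11 CPM (median 2.98). The lowest value rested on 1 count, which lies under the limit of 3 counts that corresponded to 0.131 to 1.56 CPM across libraries. The groups overlapped, as for the other members.

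**Figure D1:**
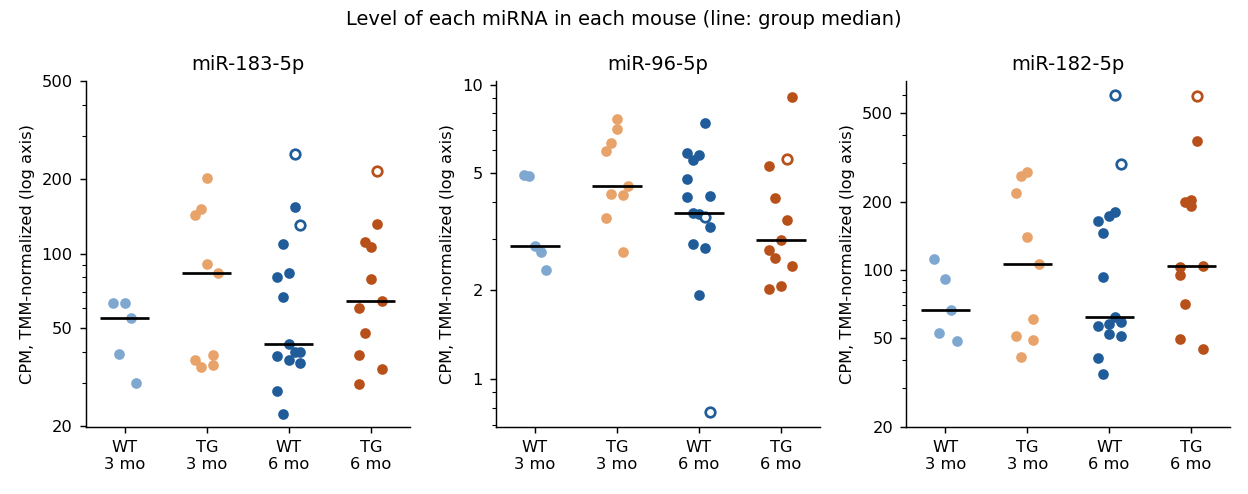
Level of miR-183-5p, miR-96-5p and miR-182-5p in each of 40 mice as TMM-normalized CPM on a log axis, by genotype and age, with points for mice, open points for the 3 libraries under 5000000 counts and lines for group medians. All groups overlap, and the highest levels of miR-182-5p, 601 and 593 CPM, are open points.

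Little of this variation lay between the groups. Genotype and age together accounted for 7.13% of the variance of log2 CPM for miR-182-5p, 4.41% for miR-183-5p and 9.32% for miR-96-5p. Any split of the mice into groups accounts for some variance, and these shares were not tested against that. Within groups, the SD of log2 CPM was 1.06 for miR-182-5p, 0.90 for miR-183-5p and 0.61 for miR-96-5p. The median SD of the 361 miRNAs whose mean level reached 10 CPM was 0.45, and 96.4% of these had a smaller SD than miR-182-5p.

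Most of the variation of miR-182-5p and miR-183-5p moved with the proportions of synthetic oligos counted in each library. The libraries hold 52 synthetic UniSp spike-in oligos, which the sources used here do not describe, and the proportions of these oligos differed between libraries. UniSp138, for example, took 16.2 to 39.7% of all spike-in counts. The first axis of this composition, over 36 oligos, carried 79.5% of its variance and is called the spike-in axis. It was examined after the data were seen, and its score is low in libraries rich in UniSp138 and UniSp142. Within groups, miR-182-5p correlated with the axis at r = -0.92 and rho = -0.93 over 40 mice (both permutation p = 1e-05, the smallest that 100000 resamples can give, adjusted 3e-05 over 12 relations). For miR-183-5p, r was -0.87 and rho -0.89 (permutation p = 1e-05 for each, adjusted 3e-05). Without the 2 mice farthest out on the axis, r was -0.92 for miR-182-5p and -0.86 for miR-183-5p.

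On TMM-scaled levels, miR-96-5p did not follow the axis, with r = 0.15 (permutation p = 0.354, adjusted 0.425) and rho = -0.0092 (permutation p = 0.955, adjusted 0.955). The relation of the members with the axis was computed on TMM-scaled levels only, and its dependence on the scaling was not tested. Among the 20 libraries below the median of the axis, r was -0.80 for miR-182-5p, -0.69 for miR-183-5p and 0.28 for miR-96-5p. Among the 20 above it, r was -0.68, -0.61 and 0.18 in the same order. The relation of miR-182-5p and miR-183-5p with the axis thus held on both sides, with permutation p between 4e-05 and 0.00407. The axis accounted for 83.8% of the within-group variance of miR-182-5p, 75.6% of that of miR-183-5p and 2.27% of that of miR-96-5p. This behaviour was shared by many miRNAs, since 57.1% of the 361 had an absolute r above 0.7 with the axis. Apart from the members, the first axis of these miRNAs within groups carried 70.1% of their variance. It correlated with the spike-in axis at an absolute r of 0.99. Regression on the spike-in axis thus also takes out the variation along this miRNA axis, and the source of that variation was not tested.

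Library depth moved with the same members, again on TMM-scaled levels. Against the log2 of the miRNA counts of the library, within groups, r was -0.69 and rho -0.64 for miR-182-5p (permutation p = 1e-05 for each). miR-183-5p had r = -0.64 (permutation p = 1e-05) and rho = -0.61 (permutation p = 6e-05), and miR-96-5p had r = 0.094 (permutation p = 0.556) and rho = -0.081 (permutation p = 0.617). The axis was not evenly placed across groups either. Its score ranged from -0.0095 to 0.201 in wild-type control mice at 3 months, from -0.267 to 0.233 in TG mice at 3 months, from -0.357 to 0.156 in wild-type control mice at 6 months and from -0.236 to 0.135 in TG mice at 6 months. The group of 5 therefore held no library from the low end, where miR-182-5p and miR-183-5p were high.

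**Figure D2:**
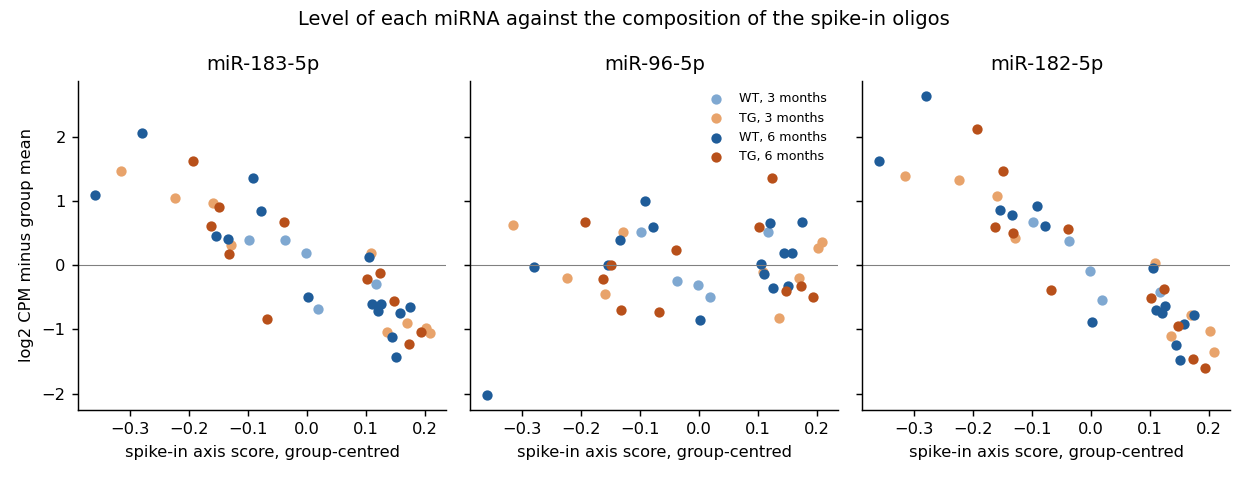
Deviation of log2 CPM from the group mean for each miRNA against the group-centred score on the spike-in axis, with 1 point per mouse coloured by group. On these TMM-scaled levels, miR-183-5p and miR-182-5p fall along the axis (r = -0.87 and -0.92), whereas miR-96-5p does not (r = 0.15).

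The comparison of 3 and 6 months in TG mice asked which miRNAs differ between these ages in the heart failure model. None of the 3 members was called altered, where a call required an adjusted p under 0.05 in the quasi-likelihood test of edgeR and an absolute log2 fold change (log2FC) above 0.26. Of all 629 miRNAs tested, 99 were called (15.7%), 47 of them higher and 52 lower at 6 months. The log2FC of 6 over 3 months in edgeR was 0.49 ± 0.47 (SE) for miR-182-5p (adjusted p = 0.486), with 5 of 11 older mice above the mean of the younger ones. It was -0.099 ± 0.40 for miR-183-5p (edgeR, adjusted p = 0.895) and -0.42 ± 0.27 for miR-96-5p (edgeR, adjusted p = 0.297). With the spike-in axis as a covariate, the log2FC of miR-182-5p turned to -0.10 ± 0.21 and that of miR-183-5p went to -0.43 ± 0.19 (edgeR, adjusted p = 0.734 and 0.0711). That of miR-96-5p was -0.43 ± 0.25. Without the library under 5000000 counts in this comparison, the log2FC was 0.14 for miR-182-5p and -0.34 for miR-183-5p.

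The same comparison in wild-type control mice asked for the difference with age without the transgene. No member was called, and 1 of 660 miRNAs was (0.152%). DESeq2 with 1 and 2 factors of unwanted variation called 205 and 219 miRNAs, and with 2 factors it called miR-182-5p (log2FC 0.45, adjusted p = 0.0462). The log2FC of 6 over 3 months was 0.87 ± 0.55 for miR-182-5p, 0.61 ± 0.46 for miR-183-5p and 0.22 ± 0.29 for miR-96-5p (edgeR, adjusted p = 0.465, 0.540 and 0.751). Of 15 older mice, 7 lay above the mean of the younger ones for miR-182-5p and for miR-183-5p. With the spike-in axis as a covariate, the log2FC was -0.16 ± 0.21 for miR-182-5p, -0.15 ± 0.24 for miR-183-5p and 0.25 ± 0.27 for miR-96-5p. The direction for miR-182-5p and miR-183-5p was therefore not kept once the axis was in the fit. Without the 2 libraries under 5000000 counts, the values were 0.31 for miR-182-5p and 0.28 for miR-183-5p. Without both mice of mixed genotype labels, they were 0.98 for miR-182-5p, 0.62 for miR-183-5p and 0.64 for miR-96-5p.

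At 3 months, TG mice were compared with wild-type control mice at the younger age. All 3 members had a positive log2FC of TG over wild-type, and none was called, as was none of the 695 miRNAs tested (0%). edgeR gave 7 miRNAs with an unadjusted p under 0.05, no member among them, and DESeq2 with 2 factors of unwanted variation called 77. The log2FC was 0.77 ± 0.42 for miR-183-5p, 0.76 ± 0.45 for miR-182-5p and 0.47 ± 0.29 for miR-96-5p (edgeR, adjusted p = 0.998 for each). In TG mice, 5 of 9 lay above the wild-type mean for miR-183-5p and for miR-182-5p, and 7 of 9 for miR-96-5p. With the spike-in axis as a covariate, the log2FC was 0.33 ± 0.19 for miR-183-5p, 0.28 ± 0.18 for miR-182-5p and 0.46 ± 0.25 for miR-96-5p (edgeR, adjusted p = 0.619, 0.627 and 0.619). The mice of mixed genotype labels mattered most for miR-96-5p. Without both, its log2FC was 0.92 ± 0.34 (edgeR, unadjusted p = 0.0168, adjusted p = 0.990), and that of miR-183-5p and miR-182-5p was 0.80 and 0.88. DESeq2 with 2 factors of unwanted variation was the 1 setting that called members here, with a log2FC of 0.64 for miR-183-5p (adjusted p = 0.0068) and 0.60 for miR-182-5p (adjusted p = 0.0153).

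At 6 months, TG mice were set against controls of the same age, and no member and none of 612 miRNAs was called (0%). edgeR gave 3 miRNAs with an unadjusted p under 0.05, no member among them, and DESeq2 with 1 or 2 factors of unwanted variation called 3 and 4. No member was called in those DESeq2 fits. There miR-182-5p had a log2FC of 0.45 with 1 factor (DESeq2, unadjusted p = 0.00589, adjusted p = 0.157). With 2 factors it had 0.44 (DESeq2, unadjusted p = 0.00104, adjusted p = 0.0692). The log2FC of TG over wild-type was 0.41 ± 0.46 for miR-182-5p, 0.093 ± 0.37 for miR-183-5p and -0.14 ± 0.25 for miR-96-5p (edgeR, adjusted p = 0.992 for each). With the spike-in axis as a covariate, these values were 0.20 ± 0.19, -0.029 ± 0.20 and -0.17 ± 0.23. Without the 3 libraries under 5000000 counts, the log2FC of miR-182-5p was 0.64 and that of miR-183-5p 0.19.

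Whether the difference with age depended on genotype was tested as an interaction over all 4 groups. The difference in log2FC, TG minus wild-type, was -0.75 ± 0.63 for miR-183-5p, -0.65 ± 0.40 for miR-96-5p and -0.43 ± 0.75 for miR-182-5p (edgeR, adjusted p = 0.986 for each). None of 699 miRNAs was called (0%), with 14 at an unadjusted p under 0.05, no member among them, and DESeq2 with 2 factors of unwanted variation called 5. With the spike-in axis as a covariate, the difference was -0.34 ± 0.30 for miR-183-5p, -0.68 ± 0.37 for miR-96-5p and 0.00068 ± 0.29 for miR-182-5p. The value of miR-96-5p was thus the one that the axis left in place. Without both mice of mixed genotype labels it was -1.11 (edgeR, unadjusted p = 0.0227, adjusted p = 0.993).

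**Figure D3:**
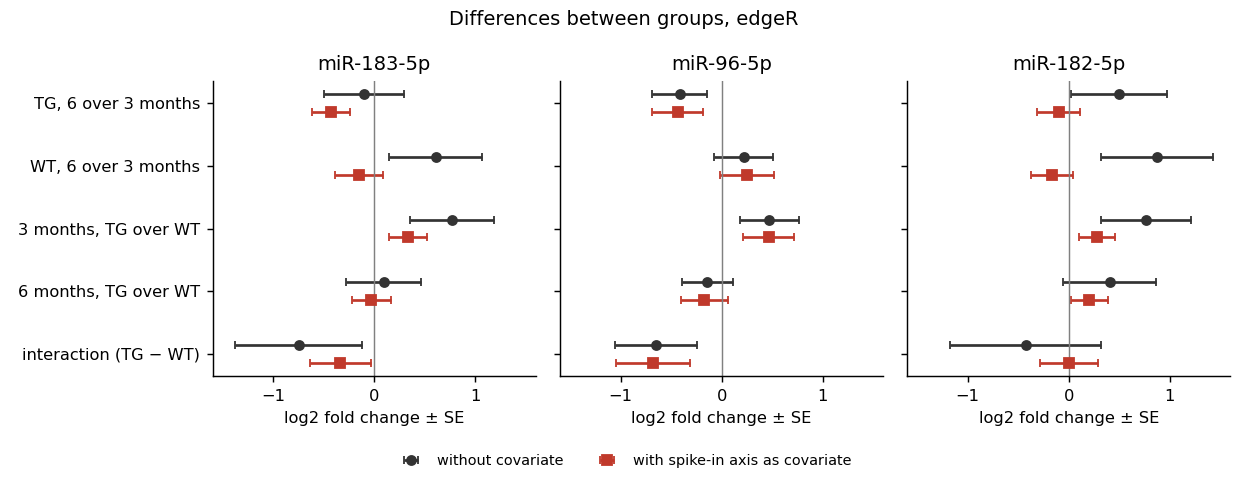
Log2 fold change of each miRNA in the 5 comparisons with its SE from edgeR, without a covariate (black circles) and with the spike-in axis as a covariate (red squares). No value was called, and with the covariate the SE of miR-182-5p in wild-type control mice fell from 0.55 to 0.21 while its value moved from 0.87 to -0.16.

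miR-182-5p and miR-183-5p varied together across mice. Over group-centred log2 CPM of 40 mice, r was 0.97 and rho 0.96 (permutation p = 1e-05 for each, adjusted 3e-05 and 4e-05 over 12 relations), and r was 0.96 without the 2 mice farthest from the median. Within single groups, r was 0.99 in 9 TG mice at 3 months, 0.97 in 15 wild-type control mice and 0.96 in 11 TG mice at 6 months (permutation test, exact in the group of 9, adjusted p = 3e-05 for each). rho was 1, 0.94 and 0.95 in the same order (permutation test, exact in the group of 9, adjusted p = 4e-05, 4e-05 and 9e-05). Strong correlation was common in these libraries, since the median absolute r of all 64980 pairs of the 361 miRNAs was 0.48. An r at least as high as that of miR-182-5p and miR-183-5p was reached by 0.151% of pairs. After regression of both on the spike-in axis, r was 0.87 and rho 0.89 (permutation p = 1e-05 for each). The median absolute r of all pairs was then 0.20, and 0.0693% of pairs reached 0.87.

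miR-96-5p did not vary with the others before the axis was taken into account. Its r was 0.15 with miR-183-5p (permutation p = 0.367, adjusted 0.672) and 0.060 with miR-182-5p (permutation p = 0.711, adjusted 0.776), and rho was 0.25 and 0.22 (permutation p = 0.12 and 0.17, adjusted 0.24 and 0.27). Within single groups its r ranged from -0.13 to 0.42, and no such relation had an adjusted permutation p under 0.223. After regression on the axis, r of miR-96-5p was 0.57 with miR-183-5p and 0.50 with miR-182-5p (permutation p = 9e-05 and 0.0013), with rho of 0.54 and 0.52 (permutation p = 0.00052 and 0.00059). Without the 3 libraries under 5000000 counts as well, r was 0.54 and 0.48 (permutation p = 0.00055 and 0.0023) and rho 0.49 for each (permutation p = 0.00228 and 0.0024). Such values were not rare, since 3.60% and 6.12% of all pairs reached 0.57 and 0.50 after the regression. On either side of the median of the axis, with no regression, r of miR-96-5p lay between 0.079 and 0.25, with permutation p from 0.285 to 0.738.

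**Figure D4:**
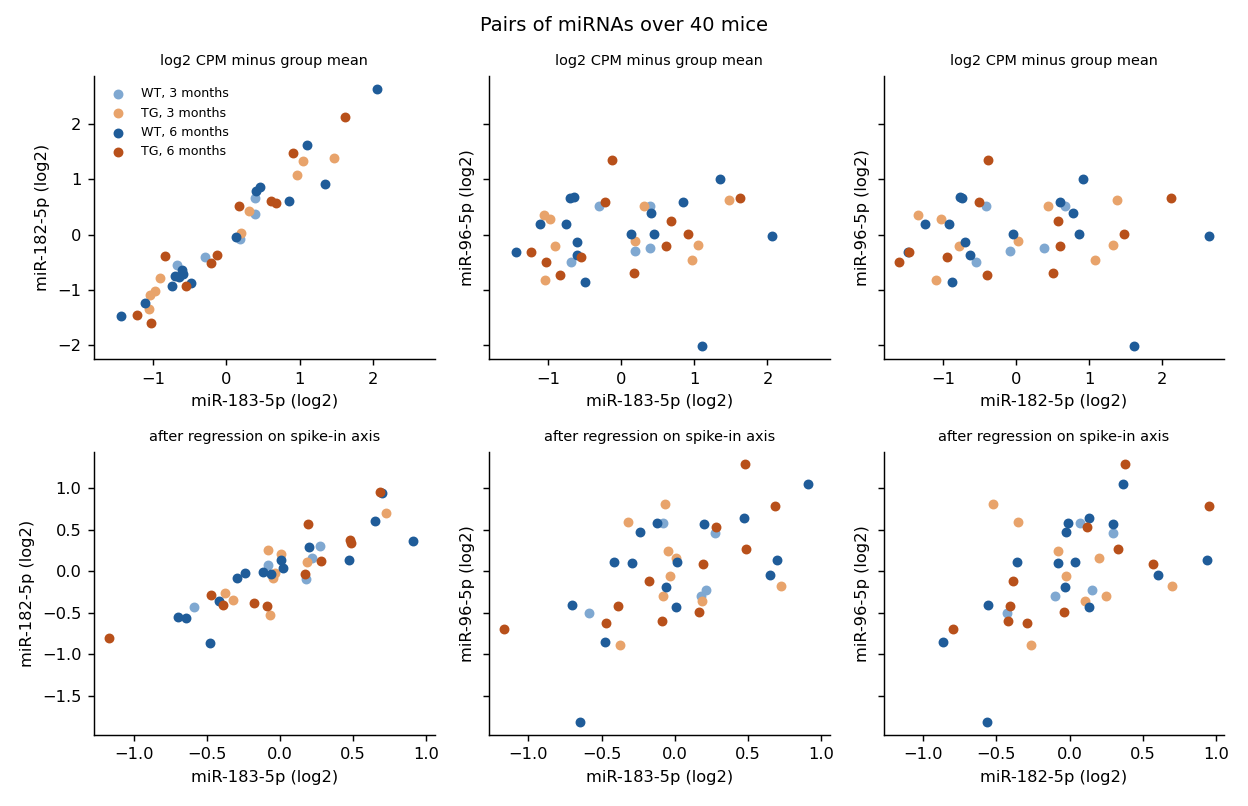
Pairs of members over 40 mice, as log2 CPM minus the group mean (top) and after regression on the spike-in axis (bottom), with 1 point per mouse coloured by group. miR-183-5p and miR-182-5p lie along a line in both rows (r = 0.97 and 0.87), and the pairs with miR-96-5p do so less (r = 0.15 and 0.060 at the top, 0.57 and 0.50 at the bottom).

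Ratios within a library do not depend on its scaling, and were compared between groups as log2 of counts plus 0.5. The ratio of miR-182-5p to miR-183-5p had a mean log2 of 0.55 ± 0.21 (SD) in controls and 0.52 ± 0.17 in TG mice at 3 months. At 6 months it was 0.67 ± 0.32 in controls and 0.96 ± 0.39 in TG mice, in which miR-182-5p had 1.31 to 2.87 times the counts of miR-183-5p. In TG mice the ratio was 0.44 higher at 6 than at 3 months, with 10 of 11 older mice above the mean of the younger ones (exact two-sided permutation test, p = 0.00628). This did not pass the correction over 12 tests of ratios (adjusted p = 0.0753 in the same exact permutation test). TG mice at 6 months exceeded wild-type control mice by 0.29 (permutation test, p = 0.0495, adjusted 0.297), and 8 of 11 lay above the wild-type mean. The age difference in wild-type control mice was 0.12 (exact permutation test, p = 0.453, adjusted 0.855), and the genotype difference at 3 months was -0.035 (exact permutation test, p = 0.748, adjusted 0.897).

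The spike-in axis moved with this ratio too, at r = -0.65 and rho = -0.59 within groups over 40 mice (permutation p = 3e-05 and 7e-05, the same after adjustment over 3 ratios). After regression on the axis, the difference with age in TG mice was 0.34, with 11 of 11 older mice above the mean of the younger ones (exact permutation test, p = 0.00506, adjusted 0.0607). The excess of TG mice over controls at 6 months was then 0.24 (permutation test, p = 0.019, adjusted 0.114). Without libraries under 5000000 counts and with no regression, these differences were 0.39 (exact permutation test, adjusted p = 0.115) and 0.32 (permutation test, adjusted p = 0.13). Median depth was lower at 6 than at 3 months, and its part in the age difference of this ratio was not otherwise tested. Ratios with miR-96-5p passed the correction in none of the 8 tests, with adjusted permutation p from 0.452 to 0.944. They followed the axis more closely, with r and rho of 0.86 for miR-96-5p over miR-183-5p and of 0.89 for miR-96-5p over miR-182-5p (permutation p = 1e-05 for each, adjusted 1.5e-05). A log2 ratio is the difference between the log2 values of its members, so these r repeat the relations of single members with the axis. In the ratios with miR-96-5p the SD of log2 within groups was 0.59 to 1.40, against 0.17 to 0.39 for miR-182-5p to miR-183-5p.

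**Figure D5:**
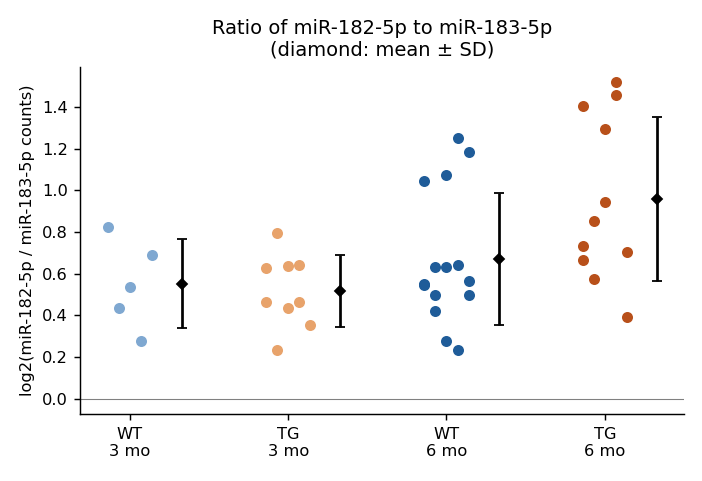
Log2 ratio of the counts of miR-182-5p to miR-183-5p in each mouse, by genotype and age, with diamonds and bars for the mean ± SD. TG mice at 6 months have the highest mean, 0.96 against 0.52 to 0.67 in the other groups, and the groups overlap.

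The miRNAs most like the cluster were found by Pearson's r with the mean of the 3 members over group-centred log2 CPM of 40 mice, among 359 miRNAs whose mean level reached 10 CPM. They were miR-25-3p, miR-192-5p, miR-195a-3p, miR-379-5p, miR-127-3p, miR-200a-5p, miR-5099 and miR-151-3p, with r from 0.81 to 0.83. All 8 correlated with the spike-in axis, at r from -0.82 to -0.98, and their r with miR-96-5p alone ran from -0.13 to 0.048. After regression on the axis, which was chosen with the data seen, the nearest were miR-219a-2-3p (r = 0.64), an oligodendrocyte miRNA, and miR-34a-5p (r = 0.61), a target of p53. Before the regression, r was 0.54 for miR-219a-2-3p but -0.51 for miR-34a-5p, whose r with the axis was 0.87. miR-1a-3p, miR-200a-5p, miR-25-3p, miR-200b-3p, miR-429-3p and miR-3970 followed with r from 0.44 to 0.48. Only miR-200a-5p and miR-25-3p were in both lists.

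A further 11 miRNAs with roles in memory and synapses, among them miR-132-3p, miR-134-5p, miR-138-5p and miR-181a-5p, were read beside the cluster. In TG mice, 1 of 11 was called higher at 6 than at 3 months and 1 lower, against 15.7% of all miRNAs. miR-128-3p, which dampens neuronal excitability, had a log2FC of 0.73 ± 0.21 (edgeR, adjusted p = 0.021), and miR-125b-5p one of -0.62 ± 0.19 (edgeR, adjusted p = 0.0266). The median log2FC of the 11 was -0.16, beside -0.088 over all miRNAs tested. In the other 4 comparisons none of the 11 was called.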

How the data were processed

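Small RNA libraries of hippocampal CA1 were made with the NEBNext kit. The submitters' processing notes name bcl2fastq 2.20.2, FastQC 0.11.5 and cutadapt 2.8. The authors aligned reads with mirdeep2, counted them on pairs of mature miRNA and precursor (mm10, miRBase) and deposited raw counts. They also deposited RPM, which equalled the scaled counts within 0.005. RPM entered only alternatives, in limma and in the correlations.

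Groups follow the sample titles, and the paper states other numbers of TG mice per age. Mature miRNAs with several precursors were represented by the one with the highest total, and each member has 1 precursor. Each comparison was fitted with edgeR 4.0.16 (R 4.3.3; filterByExpr at 10 counts and a total of 15, TMM, robust quasi-likelihood F test, Benjamini-Hochberg adjustment over all miRNAs tested). DESeq2 1.42.0, with or without RUVr factors computed from their definition, and limma 3.58.1 were alternatives. Permutation tests (scipy 1.17.1) were two-sided, with all splits in groups under 10 mice and 100000 resamples otherwise. For correlations across groups, group-centred values, or those left after regression, were permuted freely and not within groups. The p-values of these correlations are therefore approximate. Correlations used log2 CPM with a prior count of 2. The spike-in axis is the first component of log2 spike-in shares for oligos with a mean of at least 20 counts. The edgeR fit was also run on simulated counts with known changes. These were drawn independently for each miRNA, so that the simulation does not cover variation shared by many miRNAs, such as that along the spike-in axis.

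The members, gene lists and rule for likeness were chosen with earlier results of these data known. Named miRNAs are the members, their 3′ arms, those sharing bases 2 to 7, the 8 with the highest r to the members and the lists of memory miRNAs and cell markers. miRNAs of these lists that were called are named because of their values, as are those nearest after regression on the axis. Total counts ranged from 2656368 to 36547011. No 2 libraries of a group were copies. Nothing states that same-numbered mice are related. The mRNA data were not analysed here.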

Additional observations from a re-analysis of the deposited data

How the results depend on the processing

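Of 240 log2FC of the members under alternatives that change the samples or the fit, 227 kept their direction and stayed uncalled. The alternatives based on spike-in oligos and on depth were added after the data were seen. With the replicate number as a block, miR-182-5p and miR-183-5p were called in controls between ages (log2FC 1.73 and 1.29, with 250 miRNAs called in place of 1), and miR-183-5p turned to -0.11 at 6 months. The mice share only a number: same-numbered pairs correlated above 0.1 in 2 of 5 cases in controls between ages and at 3 months, 7 of 9 in TG mice and 9 of 11 at 6 months, and 1 of 5, 1 of 5, 0 of 9 and 2 of 11 mice correlated best with their own number. DESeq2 with 2 factors of unwanted variation called miR-182-5p in controls (0.45), and miR-183-5p and miR-182-5p at 3 months (0.64 and 0.60). With the spike-in axis, miR-182-5p had -0.10 in TG mice, -0.16 in controls and 0.00068 in the interaction, and miR-183-5p had -0.15 in controls and -0.029 at 6 months. With mixed-label mice as TG, miR-183-5p had 0.036 in TG mice. limma with a pseudocount of 0.1 gave miR-96-5p -0.037 in controls. Leaving out each wild-type mouse of 3 months kept the members uncalled. In that case the log2FC in controls ran from 0.76 to 1.06 for miR-182-5p, 0.47 to 0.69 for miR-183-5p and 0.096 to 0.38 for miR-96-5p. At 3 months it ran from 0.66 to 0.96, 0.64 to 0.88 and 0.36 to 0.67, and in the interaction from -0.59 to -0.30, -0.85 to -0.61 and -0.81 to -0.53. Scaling by library totals alone moved the median log2FC of all miRNAs by -0.20 in TG mice, -0.17 in controls and -0.12 at 6 months.

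Of 69 differences in ratios under alternatives that could change them, 52 kept their direction and none passed the correction. After regression on the axis, the age difference in controls was -0.0051 for miR-182-5p over miR-183-5p, 0.34 for miR-96-5p over miR-183-5p and 0.35 for miR-96-5p over miR-182-5p. miR-96-5p over miR-183-5p was then at 0.047 in TG mice and 0.22 at 3 months, and miR-96-5p over miR-182-5p at 0.32 at 3 months. Without mixed-label mice, the 3-month differences were 0.017 (miR-182-5p over miR-183-5p), 0.26 (miR-96-5p over miR-183-5p) and 0.24 (miR-96-5p over miR-182-5p), and miR-96-5p over miR-183-5p was at 0.13 in controls between ages. Without libraries under 5000000 counts, the age differences in controls were 0.18 (miR-96-5p over miR-183-5p) and 0.14 (miR-96-5p over miR-182-5p). With each wild-type mouse of 3 months left out, the 3-month differences ran from -0.10 to 0.033, -0.23 to 0.14 and -0.20 to 0.20 in the same order of ratios. That of miR-96-5p over miR-183-5p in controls ran from -0.36 to 0.012. The direction turned without mice 1 or 5 for miR-182-5p over miR-183-5p and without mouse 2 for the ratios with miR-96-5p.

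r of miR-96-5p with miR-183-5p and miR-182-5p was -0.087 and -0.25 with library totals alone, -0.069 and -0.21 on the deposited values, 0.57 and 0.50 after regression on the axis, and 0.54 and 0.48 when libraries under 5000000 counts were left out as well. The cause of these changes was not tested. Calls over all miRNAs also moved. In TG mice 99 became 302 and 312 with 1 and 2 factors in DESeq2 and 243 with the axis. In controls 1 became 15 with DESeq2, 205 and 219 with factors, 2 with library totals alone, 0 with limma, 5 with the axis and 0 to 4 with a mouse left out. At 3 months 0 became 7 and 77, at 6 months 3 and 4, and in the interaction 5 with 2 factors. miR-96-5p had under 10 counts in 3 libraries, which limits its precision there.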

Other observations

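Markers of other cell types are given beside the members, and their part in the levels of the members was not tested. After regression on the spike-in axis, the oligodendrocyte markers miR-219a-2-3p and miR-338-3p had r of 0.64 and 0.24 with the mean of the members, as a description over 40 mice. Before the regression, r of these markers was 0.54 and -0.43 in the same order. Both were called lower at 6 than at 3 months in TG mice (edgeR, log2FC -0.57 and -1.02, adjusted p = 0.0119 and 0.0157), a comparison in which 15.7% of all miRNAs were called. Their summed level was 1186 to 2299 CPM at 3 months and 741 to 1347 CPM at 6 months in TG mice, and 1043 to 1642 CPM and 672 to 1664 CPM in wild-type mice. The 5 epithelial miRNAs of the miR-200 family had r of 0.26 to 0.45 with the members after the regression. Before it, their r ran from -0.17 (miR-141-3p) to 0.40 (miR-200b-3p). Their summed level was 81.2 to 299.6 CPM in wild-type and 127 to 338 CPM in TG mice at 3 months, and 37.0 to 275 CPM and 79.6 to 375 CPM at 6 months. miR-200c-3p was the 1 of 4 tested that was called in TG mice, and it was lower (edgeR, log2FC -0.71, adjusted p = 0.0425).

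Of the 5 markers of choroid plexus and ciliated epithelium, miR-204-5p and miR-211-5p had r of -0.52 and -0.46 with the members after the regression and were called higher at 6 months in TG mice (edgeR, log2FC 0.89 and 1.07, adjusted p = 0.000602 and 0.00103). The other 3 were not called, with r of -0.25 for miR-34b-5p and miR-34c-5p and 0.19 for miR-449a-5p, and the log2FC of the 5 had a median of -0.036 and ran from -0.86 to 1.07. Before the regression, r was -0.19 for miR-204-5p, 0.039 for miR-211-5p and between -0.47 and -0.32 for the other 3. The summed level of these 5 was 464 to 854 CPM in TG mice at 3 months and 781 to 1190 CPM at 6 months, and 515 to 1106 CPM and 669 to 2524 CPM in wild-type mice. miR-449a-5p of this list was at 0 in 5 libraries. Among 5 neuronal markers, miR-128-3p was called higher, and among 3 of red blood cells, miR-451a was called higher (edgeR, log2FC 0.68, adjusted p = 0.0067) and miR-144-3p lower (log2FC -0.98, adjusted p = 0.0335). The muscle miRNA miR-1a-3p, the 1 of 3 tested of its list that was called, was lower (edgeR, log2FC -0.80, adjusted p = 0.0136) and had r of 0.48 with the members after the regression, against 0.030 for miR-133a-3p, -0.16 for miR-499-5p and -0.018 for miR-208a-3p. Before the regression, r was 0.70 for miR-1a-3p, and -0.73, -0.58 and -0.15 for the others in that order. The liver marker miR-122-5p was at 8.14 to 33.8 CPM and was not called. No marker was called in the other 4 comparisons.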
